A study of Mus musculus with 8 samples.

Results

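Long-term hematopoietic stem cells (LT-HSC) were compared with multipotent progenitors (MPP) within the libraries labelled Tet1 KO, 2 libraries of each population and 4 of the 8 libraries of the study. The members were chosen by label alone, and no measured value entered the choice. The count tables of the populations shared 17893 genes, and the comparison was made over these. The study measured polyadenylated RNA of LT-HSC and MPP sorted from bone marrow of mice of the strain given as CD57BL/6, at an age of 6 months and 20 weeks after transplantation with wild-type (WT) or Tet1 KO marrow. RNA came from 10000 LT-HSC or 100000 MPP. The WT populations, also 2 libraries each, served as the same contrast without the deletion. The labels used here do not give the part of Tet1 that was deleted, the genotype or remaining cells of the transplanted hosts, the antibodies of the sort, or whether the 2 libraries of a group came from separate animals. P-values therefore measure only the spread between these libraries, which may be technical.

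LT-HSC sit at the top of blood formation: they divide rarely, renew themselves over the life of the animal and carry receptors such as Slamf1 (CD150) and Procr (EPCR). MPP are their direct descendants, cycle more, have lost long-term self-renewal and begin to transcribe lymphoid and myeloid genes, with the receptor tyrosine kinase Flt3 at their surface. Tet1 is a dioxygenase that oxidises 5-methylcytosine and so takes part in the removal of DNA methylation. The comparison asks which differences between stem cell and progenitor were present among the KO libraries.

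The libraries held 5356505 and 5059917 counts (LT-HSC KO), 12504581 and 12400764 (MPP KO), 5479731 and 4976459 (LT-HSC WT) and 11928659 and 12030265 (MPP WT). Levels are given as CPM, the counts of each library scaled to a common total after normalisation over the 8 libraries, always replicate 1 before replicate 2. A total of 3 counts corresponded to 0.56 and 0.593 CPM in LT-HSC KO and 0.24 and 0.242 CPM in MPP KO. Replicates of a group correlated at 0.972 to 0.99 (Pearson's r of log2 CPM across genes, which are not independent), and the LT-HSC KO libraries correlated with the MPP KO libraries at 0.766 to 0.789, against 0.882 to 0.891 between LT-HSC WT and MPP WT. The LT-HSC KO libraries stood apart from the others. They correlated with LT-HSC WT at 0.846 to 0.871, whereas MPP KO correlated with MPP WT at 0.974 to 0.982. Gene models made largely of satellite repeats held 7.68% and 9.87% of their counts, against at most 0.213% in any other library. Genes of at least 20 kb with at most 5 counts over the 4 WT libraries, 428 genes chosen for that low count, held 8432 and 8043 counts in LT-HSC KO and 956 and 1307 in MPP KO, or 0.322 and 0.311 against 0.0286 and 0.043 counts per kb of gene. Results were therefore also computed with this rate times each gene's span subtracted from the KO libraries, called background-subtracted below, and the part of such reads in the other results was not tested further. Y-linked genes held 36 to 73 counts in the 4 KO libraries and 786 to 2093 in the 4 WT libraries, so genotype and sex of the cells cannot be told apart where KO is set beside WT.

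Tet1 itself was counted at 61 and 72.8 CPM in the LT-HSC libraries labelled KO and 64.9 and 72.3 CPM in the MPP libraries labelled KO. The WT libraries held 60.9 and 82.4 CPM and 101 and 111 CPM. The LT-HSC ranges of the genotypes overlapped and the MPP ranges did not. Counts over the whole gene do not check a deletion of part of it, so the KO labels rest on the submitters' word. Between the populations Tet1 did not pass the test in KO (log2 fold change LT-HSC over MPP -0.06 ± 0.14 (SE), adjusted p = 0.737).

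Of 16150 genes tested in KO, 8197 differed between LT-HSC and MPP (50.8% called, adjusted p under 0.05): 4386 were higher in LT-HSC (27.2%) and 3811 were higher in MPP (23.6%). A difference of at least 2-fold was called for 5011 genes (31%). In WT, 5022 of 14660 tested genes were called (34.3%), with 2544 higher in LT-HSC (17.4%) and 2478 higher in MPP (16.9%). All adjusted p-values are Benjamini-Hochberg values of edgeR's quasi-likelihood test over all genes tested. In bulk libraries fewer cells of a type and less RNA per cell cannot be told apart. The split by direction depended on scaling: with upper quartile factors 68% of the KO calls were higher in LT-HSC against 53.5%, as the median of all genes moved from -0.01 to 0.19, and with background subtracted 48.4% were (2673 higher, 2850 lower). Without LT-HSC KO replicate 1 the number of KO calls fell to 5370, with 2199 higher in MPP, and without MPP KO replicate 2 the number higher in MPP fell to 2414.

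Most large stem-to-progenitor differences of WT were also present within the KO libraries. Among 14361 genes tested in both genotypes, 3009 were called in the same direction, which was 61.6% of the 4881 WT calls and 45.2% of the 6659 KO calls. Without MPP WT replicate 1 the shares were 72.4% and 27.9%, without MPP WT replicate 2 they were 76.1% and 27.5%, and without LT-HSC KO replicate 1 they were 46.3% and 55%. Of the WT calls higher in LT-HSC, 1401 of 2428 were called the same way in KO (57.7%), and of those higher in MPP, 1608 of 2453 (65.6%). Among WT calls of at least 4-fold, 1088 of 1349 were called the same way (80.7%). The 3009 shared genes had a median size of change of 1.45 log2 units in KO and 1.48 in WT. Across the 14361 genes the fold changes of the genotypes correlated at 0.701 (Pearson) and 0.595 (Spearman), a description across genes that share their libraries.

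A smaller set of WT differences was not called in KO or was turned. Of the 4881 WT calls, 1681 had no call in KO (34.4%), and the test of the difference between genotypes, the interaction of population and genotype, passed for 692 of these (41.2%). Over all 16551 genes this interaction passed for 3663 (22.1% called), positive in 2256 (13.6%) and negative in 1407 (8.5%), where positive means a higher LT-HSC to MPP ratio in KO. Opposite calls were made for 191 genes, and the interaction passed for all 191. That pass is no separate evidence, as the interaction uses the same libraries and opposite calls nearly imply it. The interaction also passed for 623 of the 3009 genes called in the same direction (20.7%). In the other direction 3459 genes were called in KO and not in WT, of which 1225 passed the interaction (35.4%). These counts depended on single libraries. Without MPP WT replicate 1 or 2 the WT calls numbered 2621 and 2464, the shared calls 1861 and 1831 and the opposite calls 54 and 43. The interaction passed for 1698 and 1132 genes without MPP WT replicate 1 or 2, for 1445 and 1898 without MPP KO replicate 1 or 2, and for 2141 without LT-HSC KO replicate 1. Opposite calls numbered 359 without LT-HSC WT replicate 2 and 97, 106 and 110 without LT-HSC KO replicate 1, MPP KO replicate 1 and MPP KO replicate 2.

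**Figure D1:**
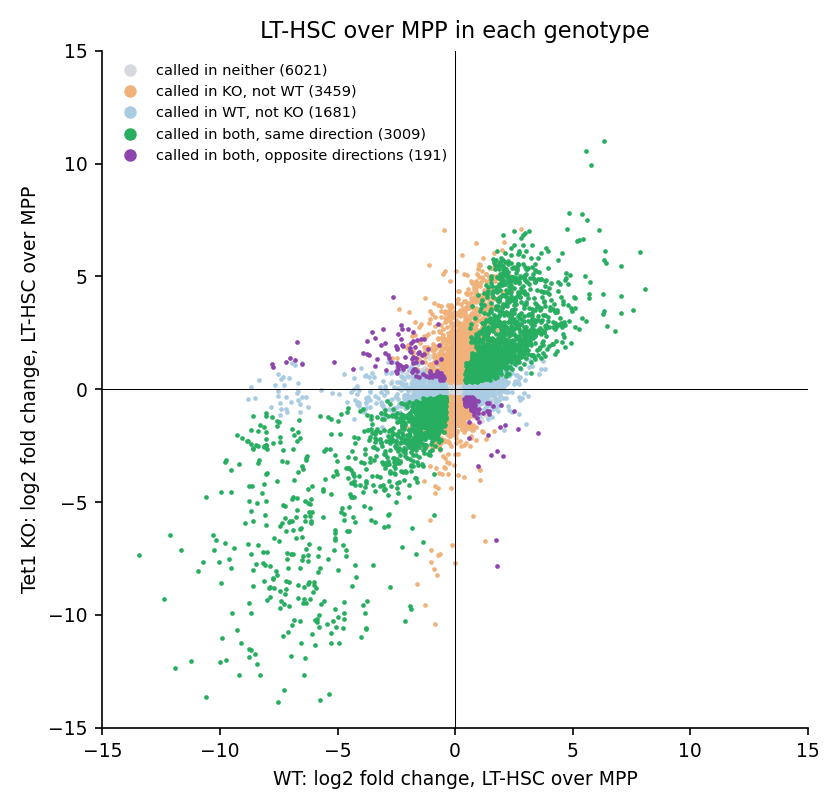
Log2 fold change of LT-HSC over MPP for 14361 genes tested in both genotypes, WT on the x axis and Tet1 KO on the y axis; colours give the calls at an adjusted p under 0.05. The 3009 genes called in the same direction lie in the lower left and upper right, and the 191 called in opposite directions in the other corners; fitted values of genes with few counts in a population depend on the prior count.

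For the marker genes of both populations the LT-HSC KO and MPP KO libraries did not overlap. With 2 libraries per group non-overlap, here and below, is a description and no test. Of all genes tested 50.8% were called in KO. Slamf1 (chr1:173697258-173731315, build mm9 as in the files) was at 37.8 and 44 CPM in LT-HSC KO and 3.9 and 4.23 CPM in MPP KO (log2 fold change 3.30 ± 0.19, adjusted p = 1.85e-05). Procr (chr2:155576853-155581207), the endothelial protein C receptor, was at 54.3 and 47.6 CPM and 14.8 and 13.3 CPM (1.83 ± 0.16, adjusted p = 9.36e-05). Both receptors were thus higher in every LT-HSC KO library than in any MPP KO library. Flt3 (chr5:148142317-148212065) was at 41.4 and 37.1 CPM in LT-HSC KO and 390 and 348 CPM in MPP KO (-3.26 ± 0.14, adjusted p = 5.04e-06). Dntt (chr19:41103765-41134013), the terminal transferase of antigen receptor rearrangement, was at 2.18 and 3.07 CPM and 307 and 290 CPM (-6.85 ± 0.19, adjusted p = 2.08e-06). Mpo (chr11:87607083-87617915), the myeloperoxidase of granulocyte precursors, was at 15.1 and 20 CPM and 1230 and 1260 CPM (-6.18 ± 0.19, adjusted p = 2.8e-06). These 3 progenitor genes were lower in both LT-HSC KO libraries than in either MPP KO library. Flt3 in LT-HSC KO was still near the level of Slamf1 there, and was at 23.3 and 23.3 CPM in LT-HSC WT. The directions of the 5 markers were those of the population labels. This is no independent check, as the sort may have used some of these receptors and its antibodies are not given. In WT the 5 genes were called in the same directions, at log2 fold changes of 2.73, 2.34, -3.88, -6.21 and -6.61, and the interaction passed for Flt3 alone (0.70 ± 0.16, adjusted p = 0.0191). That Flt3 call was lost without LT-HSC KO replicate 1 or any single MPP library (adjusted p 0.0546 to 0.0901).

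**Figure D2:**
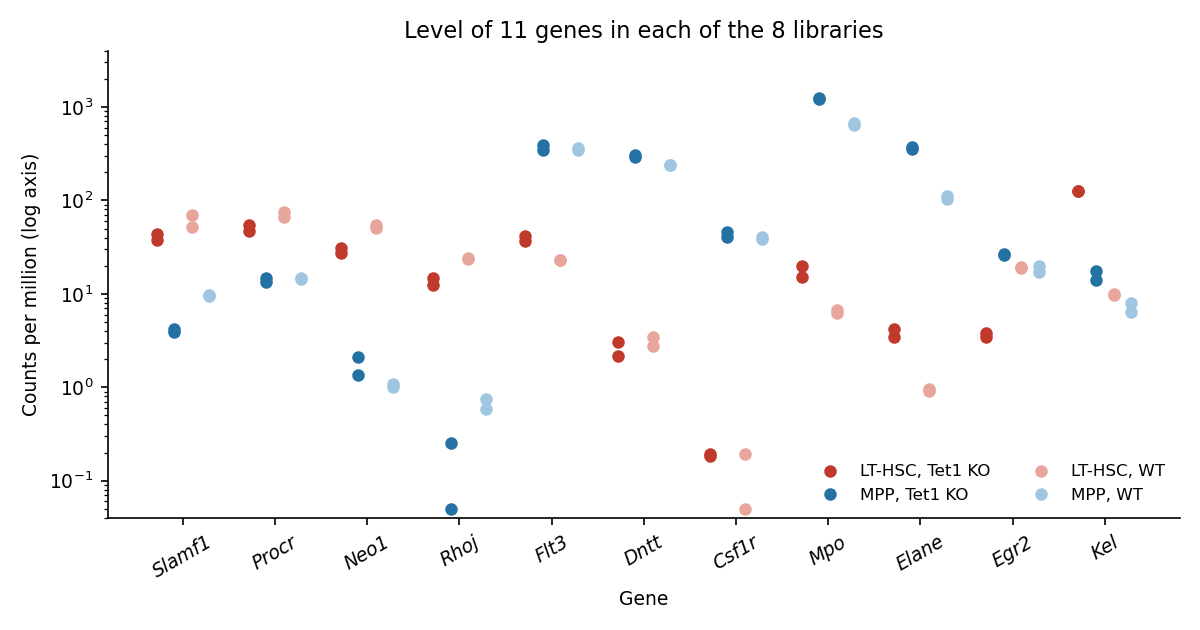
Level of 11 genes in each of the 8 libraries, in CPM on a log axis; each dot is 1 library, 2 per group, and a count of 0 is drawn at 0.05. The LT-HSC KO dots lie above the MPP KO dots for Slamf1, Procr, Neo1, Rhoj and Kel and below them for Flt3, Dntt, Csf1r, Mpo, Elane and Egr2.

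Surface and adhesion genes of LT-HSC were mostly higher in LT-HSC in both genotypes. Of 28 listed genes, all tested, 21 were higher in LT-HSC KO and 5 in MPP KO (median log2 fold change 1.53, against -0.01 over all genes tested), and in WT 22 and 3 (median 1.78). Among all genes tested, 27.2% were higher in LT-HSC KO and 23.6% in MPP KO. The lists here and below were chosen with earlier results of these data known. Neo1, the neogenin receptor, was at 27.6 and 31.3 CPM in LT-HSC KO and 2.12 and 1.35 CPM in MPP KO (4.05 ± 0.27, adjusted p = 3.14e-05). Jam2, a junctional adhesion molecule, was at 13.8 and 16.1 CPM and 1.27 and 1.78 CPM (3.26 ± 0.30, adjusted p = 0.000135). Tek, the angiopoietin receptor Tie2, was at 74.3 and 58.2 CPM and 10.1 and 8.88 CPM (2.77 ± 0.18, adjusted p = 2.81e-05). The groups did not overlap for any of these genes. Vwf, the clotting protein that marks platelet-biased stem cells, was at 203 and 192 CPM and 28.7 and 20.8 CPM (2.97 ± 0.17, adjusted p = 1.81e-05), and in WT at 487 and 404 CPM and 19.3 and 17.5 CPM. The KO minus WT difference in the Vwf log2 fold change, tested as described above, was -1.60 ± 0.23 (adjusted p = 0.00422). Kit, the stem cell factor receptor that both populations carry, was at 456 and 475 CPM and 424 and 412 CPM and did not pass in KO (0.13 ± 0.12, adjusted p = 0.395), but passed at 0.33 with upper quartile factors (adjusted p = 0.0479). Across the list the interaction passed for 10 genes, 1 positive and 9 negative (8.5% of all genes tested were negative), for 6 without LT-HSC KO replicate 1, and for 4 or 5 when any single MPP library was left out.

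Transcription factors of stem cell identity were mostly higher in LT-HSC as well. Of 28 listed factors 25 were tested, 17 were higher in LT-HSC KO and 3 in MPP KO (median 0.85), against 16 and 1 in WT (median 1.02). Mecom (Evi1), needed for long-term self-renewal, was at 154 and 178 CPM in LT-HSC KO and 54.5 and 63.1 CPM in MPP KO (1.47 ± 0.14, adjusted p = 0.000148, WT 1.5). Prdm16, another factor of stem cell maintenance, was at 89.3 and 95.4 CPM and 27.3 and 28.4 CPM (1.70 ± 0.13, adjusted p = 4.95e-05, WT 1.80). Gata2, a zinc finger factor of early blood cells, was at 433 and 470 CPM and 170 and 158 CPM (1.43 ± 0.12, adjusted p = 9.36e-05, WT 1.84). For these 3 factors the libraries of the populations did not overlap in either genotype, and the interaction did not pass (adjusted p = 0.907, 0.938 and 0.136). Gfi1b, a repressor shared with megakaryocyte and red cell precursors, and Nkx2-3, a homeobox factor, stood at 1.85 ± 0.13 and 1.74 ± 0.14 in KO (adjusted p = 3.42e-05 and 8.17e-05). Erg, an ETS factor, was at 196 and 207 CPM and 227 and 226 CPM and did not pass (-0.19 ± 0.11, adjusted p = 0.19). Lmo2, a bridging protein of blood transcription factor complexes, was at 15.6 and 16.5 CPM and 3.73 and 5.24 CPM in KO (1.81 ± 0.26, adjusted p = 0.00102) and did not pass in WT (0.50 ± 0.32, adjusted p = 0.27). Without LT-HSC KO replicate 2 the list held 12 calls higher in LT-HSC, and without MPP KO replicate 1 it held 13. The calls higher in MPP numbered 1 without LT-HSC KO replicate 1 and none without MPP KO replicate 2.

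The genes with the largest LT-HSC difference called in both genotypes were chosen by the size of the smaller of the 2 fold changes, so the size itself is a description. Rhoj, a small GTPase of endothelial cells, had 69 and 76 counts in LT-HSC KO and 0 and 3 in MPP KO, a depth-adjusted ratio of 105 times (95% interval 35.1 to 513), where such intervals cover counting error only. Clip3, a microtubule linker protein, was at 18 and 16.7 CPM and 0.679 and 0.338 CPM (5.03 ± 0.36, adjusted p = 4.13e-05). Wwtr1 (TAZ), the Hippo pathway coactivator, was at 16.5 and 15 CPM and 0.679 and 0.507 CPM (4.67 ± 0.33, adjusted p = 3.84e-05). All 4 LT-HSC libraries of both genotypes exceeded all 4 MPP libraries for each of these. Obsl1, a cytoskeletal linker, stood at 4.06 ± 0.22, Sytl5, a synaptotagmin-like effector of Rab27, at 4.34 ± 0.30, Gpr64, an adhesion receptor, at 4.21 ± 0.34, and Robo1, a Slit receptor, at 4.09 ± 0.24 (adjusted p = 1.28e-05, 3.84e-05, 7.12e-05 and 1.76e-05). With background subtracted these 4 stood at 4.25, 4.60, 4.41 and 3.58 and stayed called. Sorbs2 and Ncam2, 320 and 424 kb long, stood at 4.68 ± 0.36 and 4.75 ± 0.37 (adjusted p = 6.2e-05 and 6.45e-05) but had too few counts left to test after that subtraction.

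Genes higher in MPP were chosen in the same way. Csf1r, the receptor for macrophage colony-stimulating factor, had 1 and 1 counts in LT-HSC KO and 537 and 474 in MPP KO, a ratio of 234 times (95% interval 64.5 to 1930) in favour of MPP. Kcng1, a potassium channel subunit, had no count in either LT-HSC KO library and 246 and 224 counts in MPP KO, at least 72.4-fold higher against 3 counts over the 2 LT-HSC libraries. Chst1, a sulfotransferase, had 1 and 2 and 712 and 665 counts, 212 times (95% interval 72.5 to 1030), and in WT no LT-HSC count against 286 and 299, at least 83.8-fold higher. The LT-HSC libraries of both genotypes were thus near 0 for these genes. Clec12a, an inhibitory lectin of myeloid cells, was at 0.182 and 0.96 CPM and 87.3 and 88 CPM (-7.28 ± 0.32, adjusted p = 5.82e-06). Mpeg1, the pore-forming perforin-2 of macrophages, was at 0.545 and 1.73 CPM and 200 and 233 CPM (-7.60 ± 0.29, adjusted p = 4.08e-06). Clec10a, Cd33 and Tlr7, a lectin, a sialic acid receptor and an RNA sensor, had at most 3 counts over the 2 LT-HSC KO libraries. Their MPP KO libraries held 154 and 125, 263 and 236 and 312 and 351 counts, ratios of 129 times (95% interval 23 to 5110), 115 times (95% interval 31.8 to 955) and 102 times (95% interval 34.8 to 497).

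Lymphoid priming genes were higher in MPP in both genotypes. Of 24 listed genes 21 were tested, and 18 were higher in MPP KO and none in LT-HSC KO (median -2.89), against 16 and 1 in WT (median -2.33). Shares over all genes tested were 23.6% higher in MPP KO and 16.9% in MPP WT. With upper quartile factors 2 genes of the list were higher in LT-HSC KO. Satb1, a chromatin organiser of lymphoid progenitors, was at 4.54 and 7.49 CPM in LT-HSC KO and 219 and 215 CPM in MPP KO (-5.20 ± 0.21, adjusted p = 4.71e-06). Il7r, the interleukin 7 receptor, was at 0.908 and 3.84 CPM and 48.6 and 56.9 CPM (-4.51 ± 0.39, adjusted p = 9.94e-05). The LT-HSC KO libraries differed from each other for Il7r, and both lay under both MPP KO libraries for both genes. Cd48 and Cd52, glycolipid-anchored surface proteins, stood at -5.64 ± 0.23 and -5.51 ± 0.36 (adjusted p = 5.01e-06 and 3.14e-05).

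B lineage genes showed the same direction. Of 15 tested genes 14 were higher in MPP KO and none in LT-HSC KO (median -3.51), and 14 and none in WT (median -4.27). Shares over all genes tested were 23.6% higher in MPP KO and 16.9% in MPP WT. Ighm, the immunoglobulin mu heavy chain, was at 121 and 98.3 CPM in LT-HSC KO and 20100 and 20100 CPM in MPP KO (-7.55 ± 0.24, adjusted p = 3.07e-06). Immunoglobulin genes together held 0.0838% and 0.0613% of counts in LT-HSC KO but 9.56% and 9.01% in MPP KO. In MPP WT they held 3.73% and 3.58%. Pou2af1, the octamer coactivator of B cells, was at 4.9 and 4.42 CPM and 346 and 359 CPM (-6.26 ± 0.16, adjusted p = 2.08e-06), and at 6.78 and 10 CPM and 191 and 208 CPM in WT. Its interaction was -1.66 ± 0.26 (adjusted p = 0.0051). Across the list the interaction passed for 6 genes with a positive and 2 with a negative value, and with background subtracted for 2 and 3. Cd79a, a signalling chain of the B cell receptor, was at 9.08 and 12.7 CPM and 222 and 208 CPM (-4.33 ± 0.18, adjusted p = 5.01e-06). Igll1, the surrogate light chain, had 9 and 1 counts in LT-HSC KO and 272 and 236 in MPP KO (-4.54 ± 0.47, adjusted p = 0.000242). The summed level of the listed B lineage genes was 202 to 237 CPM in LT-HSC KO and 21100 CPM in both MPP KO libraries, and whether mature B lineage cells were among the sorted MPP was not tested.

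Primary granule genes and myeloid regulators were higher in MPP KO for 17 of 17 tested genes (median -3.76), against 16 of 17 in WT (median -4.08). Shares over all genes tested were 23.6% higher in MPP KO and 16.9% in MPP WT. Elane, the neutrophil elastase, was at 4.18 and 3.46 CPM in LT-HSC KO and 370 and 356 CPM in MPP KO (-6.59 ± 0.17, adjusted p = 2.08e-06). Ctsg, the granule protease cathepsin G, was at 4.9 and 4.22 CPM and 273 and 262 CPM (-5.89 ± 0.16, adjusted p = 2.08e-06). Ms4a3, a membrane protein of granulocyte-monocyte progenitors, was at 1.27 and 1.15 CPM and 58.4 and 57.1 CPM (-5.58 ± 0.22, adjusted p = 4.08e-06). No library of one population reached the range of the other. In WT Elane was at 0.917 and 0.963 CPM in LT-HSC and 112 and 103 CPM in MPP (-6.77 ± 0.21, adjusted p = 4.6e-05), and the interaction did not pass (adjusted p = 0.731). Cst7, a cystatin of cytotoxic and myeloid cells, stood at -5.77 ± 0.25 in KO and -3.59 ± 0.33 in WT.

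Immediate early genes, which are transcribed within minutes of a stimulus or of tissue handling, were mostly higher in MPP in KO and in no case in WT. All 28 were tested: 5 were higher in LT-HSC KO and 18 in MPP KO (median -0.50), whereas in WT 13 were higher in LT-HSC and none in MPP (median 0.45). Shares over all genes tested were 23.6% higher in MPP KO, 17.4% higher in LT-HSC WT and 8.5% with a negative interaction. The interaction passed for 21 of 28, all negative, and for 15 to 25 of 28 when any single library was left out. With background subtracted or with upper quartile factors 12 genes were higher in MPP KO and 6 in LT-HSC KO, and without LT-HSC KO replicate 1, MPP KO replicate 2 or MPP KO replicate 1 the numbers higher in MPP were 9, 11 and 13 and those higher in LT-HSC 3, 3 and 2. The summed level of the list was 11400 and 12900 CPM in LT-HSC KO, 14700 to 15200 CPM in MPP KO, 20500 to 23700 CPM in LT-HSC WT and 13300 to 13700 CPM in MPP WT.

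Many of these genes are switched on by serum response factor through the CArG box, and red cell genes by Gata1 through the letters AGATAA. The start of Egr2, the listed early gene with the largest KO fold change, and that of Epor, described further on, are shown for this reason, as 300 bases from 250 before to 50 after a transcription start in RefSeq (build GRCm38.p6, not the mm9 build of the count files). Egr2 lies on the plus strand at chr10:67537316-67537615, 1 of 5 starts in that table, with a CArG box in capitals that begins 72 bases before the start. This start was picked for the motif, as none of the 5 held more CArG boxes. Epor lies on the minus strand at chr9:21963527-21963826, with the reverse complement of AGATAA in capitals 54 bases before the start.
Egr2: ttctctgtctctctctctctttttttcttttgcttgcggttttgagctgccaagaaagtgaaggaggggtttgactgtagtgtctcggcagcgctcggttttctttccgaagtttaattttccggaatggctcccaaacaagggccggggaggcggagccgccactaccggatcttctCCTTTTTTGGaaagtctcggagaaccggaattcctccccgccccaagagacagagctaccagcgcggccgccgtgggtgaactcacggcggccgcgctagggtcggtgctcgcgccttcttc
Epor: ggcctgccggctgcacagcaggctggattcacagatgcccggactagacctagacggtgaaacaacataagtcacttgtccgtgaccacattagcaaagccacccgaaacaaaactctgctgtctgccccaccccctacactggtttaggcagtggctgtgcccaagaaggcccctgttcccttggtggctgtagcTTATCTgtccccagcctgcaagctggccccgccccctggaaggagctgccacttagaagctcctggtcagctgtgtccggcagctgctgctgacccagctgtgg
Searched on both strands, the CArG box stood in 2 of 24 immediate early genes matched by symbol (8.33%) and in 1 of 15 matched erythroid genes (6.67%). It stood in 488 of 27025 genes of the table (1.81%). AGATAA stood in 5 of 15 matched erythroid genes (33.3%), in 2 of 24 immediate early genes and in 3432 of 27025 genes (12.7%). These matches describe letters and show no binding.

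Egr2 (chr10:66998223-67004936, mm9), a zinc finger factor, was at 3.45 and 3.84 CPM in LT-HSC KO and 26.6 and 26 CPM in MPP KO (-2.88 ± 0.21, adjusted p = 5.12e-05). In WT it was at 19.1 and 19.3 CPM and 19.8 and 17.2 CPM and did not pass (0.11 ± 0.18, adjusted p = 0.678). The LT-HSC KO libraries were the low ones, and the interaction was -2.90 ± 0.25 (adjusted p = 0.000901). Klf2, a quiescence factor of stem cells and lymphocytes, was called in opposite directions: 108 and 107 CPM and 292 and 276 CPM in KO (-1.43 ± 0.11, adjusted p = 7.16e-05), and 576 and 645 CPM and 334 and 299 CPM in WT (1.00 ± 0.13, adjusted p = 0.00346). Its interaction was -2.35 ± 0.15 (adjusted p = 0.000285). Rhob, a short-lived GTPase, was at 116 and 137 CPM and 362 and 359 CPM in KO (-1.54 ± 0.13, adjusted p = 9.51e-05) and did not pass in WT (0.23 ± 0.13, adjusted p = 0.227). Also higher in MPP KO were Ier5, a growth factor response gene (-1.68 ± 0.13, adjusted p = 7.19e-05), and Gadd45b, a stress response gene (-1.56 ± 0.22, adjusted p = 0.00101). Nr4a2, an orphan nuclear receptor, kept the WT direction in KO at a smaller size (1.14 ± 0.12 against 2.11 ± 0.13, interaction -0.89 ± 0.15, adjusted p = 0.00642).

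Egr1, Fosb and Klf4 did not pass in KO. Egr1 was at 1490 and 1760 CPM in LT-HSC KO and 1710 and 1740 CPM in MPP KO (-0.11 ± 0.15, adjusted p = 0.562), and in WT stood at 0.75 ± 0.16 (adjusted p = 0.0149). Fosb, a partner of Jun in AP-1, was at 1070 and 1240 CPM and 1440 and 1450 CPM (-0.35 ± 0.14, adjusted p = 0.0768), and in WT stood at 1.01 ± 0.16 (adjusted p = 0.00592). Klf4, a quiescence-linked factor, was at 123 and 98.1 CPM and 89.6 and 82.9 CPM (0.33 ± 0.14, adjusted p = 0.0872) against 2.26 ± 0.13 in WT (adjusted p = 0.000193). With background subtracted Klf4 passed at 0.53 (adjusted p = 0.0351) and with upper quartile factors at 0.53 (adjusted p = 0.0148). For these 3 genes the interaction was -0.79 ± 0.18, -1.28 ± 0.18 and -1.85 ± 0.19 (adjusted p = 0.0191, 0.00379 and 0.00149). The Egr1 call was lost without LT-HSC KO replicate 1 or any single MPP library (adjusted p 0.0568 to 0.0756).

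Red cell genes were higher in LT-HSC than in MPP in KO and largely not in WT. Of 24 tested erythroid genes 23 were higher in LT-HSC KO and none in MPP KO (median 2.15), whereas in WT 5 were higher in LT-HSC and 4 in MPP (median 0.33). Shares over all genes tested were 27.2% higher in LT-HSC KO, 17.4% higher in LT-HSC WT and 13.6% with a positive interaction. The list and its members were chosen with earlier results of these data known. The interaction passed for 22 of 24, all positive, and for 18 to 21 when any single library was left out. The summed level of the list was 7810 to 8980 CPM in LT-HSC KO, 2000 to 2210 CPM in MPP KO, 1820 to 2150 CPM in LT-HSC WT and 1350 to 1470 CPM in MPP WT. Whether red cell precursors were among the sorted LT-HSC KO cells was not tested. Kel (chr6:41636329-41654338, mm9), the Kell blood group protein, was at 127 and 127 CPM in LT-HSC KO and 17.6 and 14.2 CPM in MPP KO (2.97 ± 0.15, adjusted p = 9.3e-06), and at 9.9 and 9.82 CPM and 6.46 and 7.95 CPM in WT. Epor (chr9:21763343-21768020, mm9), the erythropoietin receptor, was at 82.2 and 57 CPM and 13.2 and 10.7 CPM in KO (2.51 ± 0.22, adjusted p = 9.66e-05) and was also higher in LT-HSC in WT (1.40 ± 0.21, adjusted p = 0.00537). For Kel and Epor the interaction was 2.55 ± 0.24 and 1.19 ± 0.31 (adjusted p = 0.00109 and 0.0275), and the Epor call was lost when any single library other than LT-HSC KO replicate 2 was left out (adjusted p 0.0507 to 0.111).

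Genes of the red cell membrane skeleton were among them. Spnb1, the beta chain of erythrocyte spectrin, was at 427 and 414 CPM in LT-HSC KO and 63.4 and 61.2 CPM in MPP KO (2.73 ± 0.12, adjusted p = 5.34e-06). Ank1, the ankyrin that links spectrin to the membrane, was at 423 and 354 CPM and 64.5 and 54.7 CPM (2.68 ± 0.15, adjusted p = 1.5e-05). Epb4.2 and Epb4.9, protein 4.2 and dematin, stood at 2.69 ± 0.15 and 2.58 ± 0.17 (adjusted p = 1.66e-05 and 2.82e-05). Both LT-HSC KO libraries were high for all 4 genes, and both MPP KO libraries low. Their interactions ran from 2.19 to 3.35 log2 units. With background subtracted 23 genes of the list were called (median 2.35).

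Megakaryocyte genes were higher in LT-HSC in both genotypes, with 14 of 17 tested genes in KO (median 1.58) and 13 of 16 in WT (median 2.47), and none higher in MPP in either. Shares over all genes tested were 27.2% higher in LT-HSC KO, 17.4% higher in LT-HSC WT and 8.5% with a negative interaction. Pf4, platelet factor 4, was at 57.2 and 50.5 CPM in LT-HSC KO and 14.7 and 12.9 CPM in MPP KO (1.94 ± 0.16, adjusted p = 7.22e-05) and in WT at 144 and 118 CPM and 9.47 and 7.7 CPM. Rab27b, a GTPase of platelet granule release, was at 56.8 and 74.1 CPM and 14.5 and 15.5 CPM (2.10 ± 0.18, adjusted p = 8.91e-05). The populations did not overlap for these genes in either genotype. The interaction passed for 8 of 18 genes, all negative, among them Pf4 (-1.97 ± 0.23, adjusted p = 0.00244). It passed for 4 or 5 without MPP WT replicate 1, MPP WT replicate 2 or MPP KO replicate 1.

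**Figure D3:**
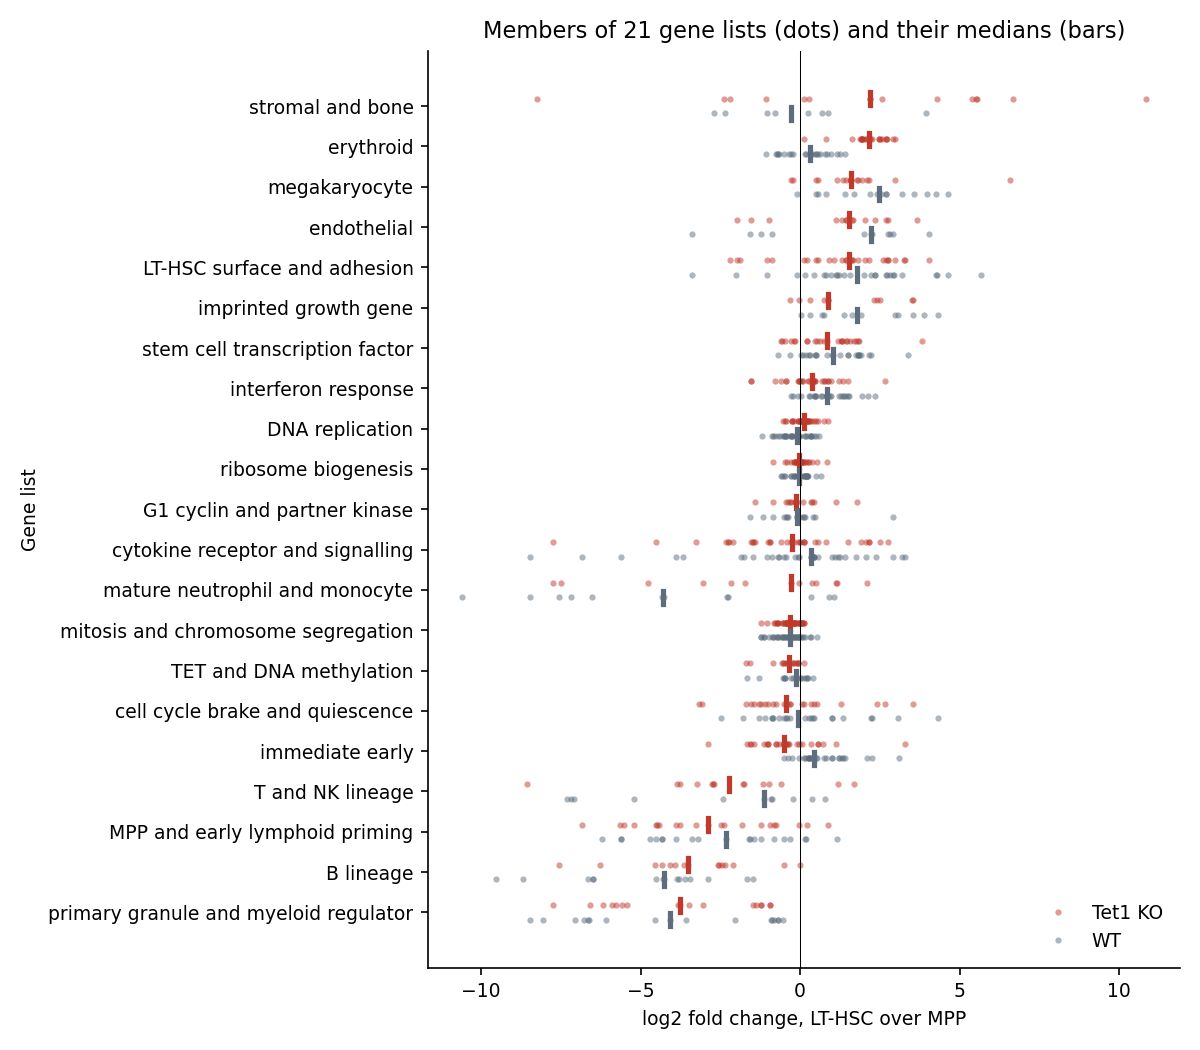
Log2 fold change of LT-HSC over MPP for the tested members of 21 gene lists (dots) and their medians (bars), Tet1 KO in red and WT in grey, ordered by the KO median. The medians of the erythroid list (2.15 and 0.33) and of the immediate early list (-0.50 and 0.45) lie apart between genotypes, while those of the granule and lymphoid lists lie at the left in both.

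Cell cycle genes gave few calls for replication and, with the main scaling, more for mitosis. Over all genes tested 27.2% were higher in LT-HSC KO and 23.6% in MPP KO. With background subtracted 2673 and 2850 of 14799 genes were. Of 37 tested DNA replication genes 5 were higher in LT-HSC KO and 2 in MPP KO (median 0.11), against 1 and 7 in WT (median -0.10). With upper quartile factors 14 replication genes were higher in LT-HSC KO and 1 in MPP KO, with background subtracted 9 and 1, without LT-HSC KO replicate 1 or 2 they were 1 and 1 or 4 and 1, and without MPP KO replicate 1 or 2 they were 3 and 1 or 2 and 0. Cdc6, a loader of the replicative helicase, was at 93.3 and 88.7 CPM in LT-HSC KO and 47.5 and 49.5 CPM in MPP KO (0.88 ± 0.12, adjusted p = 0.000751) and did not pass in WT (-0.09 ± 0.20, adjusted p = 0.755). Of 49 tested mitosis genes 22 were higher in MPP KO and none in LT-HSC KO (median -0.32), against 17 and none in WT (median -0.32). That count was 12 with DESeq2 and 9 with background subtracted, with upper quartile factors, or without LT-HSC KO replicate 2 or either MPP KO replicate, and 12 without LT-HSC KO replicate 1. Cenpf, a kinetochore protein, was at 88.2 and 116 CPM and 220 and 244 CPM (-1.21 ± 0.16, adjusted p = 0.000674). Kif23, a kinesin of cytokinesis, and Cks1b, a partner of cyclin-dependent kinases, stood at -1.05 ± 0.12 and -0.80 ± 0.12 (adjusted p = 0.000321 and 0.00151).

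The G1 genes were split. Of 16 tested, 3 were higher in LT-HSC KO and 4 in MPP KO (median -0.13), against 27.2% and 23.6% of all genes tested. Upper quartile factors gave 5 and 2. With genes over 100 kb left out the counts were 4 and 1. Without LT-HSC KO replicate 1 they were 3 and 2, without LT-HSC KO replicate 2 they were 2 and 5, and without either MPP KO library 2 and 2. Ccne1, cyclin E1, was at 93.1 and 84.3 CPM in LT-HSC KO and 26.1 and 24.1 CPM in MPP KO (1.79 ± 0.13, adjusted p = 4.86e-05). In WT it ran the other way, with 7.52 and 8.47 CPM and 17.9 and 18.9 CPM (-1.15 ± 0.21, adjusted p = 0.00915). The LT-HSC KO libraries were the high ones, and the interaction was 3.02 ± 0.20 (adjusted p = 0.000285). Mycn, a Myc-family factor, was at 41.4 and 42.8 CPM and 19.8 and 18.3 CPM in KO (1.12 ± 0.14, adjusted p = 0.000655), with a larger WT difference (2.92 ± 0.18, interaction -1.73 ± 0.22, adjusted p = 0.0028). Cdk6, the G1 kinase whose level sets the speed of leaving quiescence, was at 185 and 190 CPM and 491 and 492 CPM (-1.42 ± 0.12, adjusted p = 7.84e-05).

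Of 25 tested cell cycle brakes 14 were higher in MPP KO and 6 in LT-HSC KO (median -0.45), against 10 and 7 of 24 in WT (median -0.08). Over all genes tested 23.6% were higher in MPP KO and 27.2% in LT-HSC KO. Without LT-HSC KO replicate 1 the counts were 10 and 4, and without MPP KO replicate 2 they were 11 and 4. Cdkn1c (p57), the kinase inhibitor most tied to stem cell quiescence, was at 15.6 and 11.3 CPM in LT-HSC KO and 2.54 and 2.45 CPM in MPP KO (2.40 ± 0.29, adjusted p = 0.00046). Gfi1, a repressor that restrains stem cell division and directs granulocytes, was at 3.45 and 6.91 CPM and 47.5 and 43.8 CPM (-3.17 ± 0.27, adjusted p = 9.7e-05). Trp53inp1, a p53 target, was at 37 and 59.1 CPM and 361 and 438 CPM (-3.08 ± 0.23, adjusted p = 5.41e-05). The direction of p57 was opposite to that of the other two, with no overlap for any of them. Foxo1, a forkhead factor, and Btg1, an antiproliferative gene, were also higher in MPP KO (-1.71 ± 0.18 and -1.53 ± 0.11, adjusted p = 0.000258 and 5.27e-05). Of 29 tested ribosome biogenesis genes 2 were higher in LT-HSC KO and 1 in MPP KO (median -0.05).

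Cytokine receptors and their signalling genes were divided, 9 of 34 tested being higher in LT-HSC KO and 16 in MPP KO (median -0.25), against 13 and 11 of 35 in WT (median 0.34). Over all genes tested 27.2% were higher in LT-HSC KO and 23.6% in MPP KO, so the LT-HSC count lay near the share of all genes. Besides Tek and Epor on the LT-HSC side and Csf1r, Flt3 and Il7r on the MPP side, Il6ra, the interleukin 6 receptor, was at 11.6 and 16.3 CPM in LT-HSC KO and 67.9 and 70.2 CPM in MPP KO (-2.33 ± 0.18, adjusted p = 6.71e-05). Interferon response genes were higher in LT-HSC KO for 13 of 30 and in MPP KO for 6 (median 0.39), against 17 and none of 29 in WT (median 0.83). Without LT-HSC KO replicate 1 or 2 these counts were 7 and 3 or 10 and 3, and without MPP KO replicate 1 or 2 they were 8 and 2. Iigp1, an interferon-inducible GTPase, was at 98.6 and 99.6 CPM and 14.2 and 16.5 CPM (2.66 ± 0.14, adjusted p = 1.18e-05). Usp18, which removes ISG15, stood at 1.33 ± 0.20 (adjusted p = 0.0013). Bst2 (tetherin), which holds virus particles at the membrane, was at 17.8 and 14.8 CPM and 50.4 and 42.1 CPM (-1.53 ± 0.17, adjusted p = 0.000366) and did not pass in WT (-0.23 ± 0.16, adjusted p = 0.302).

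Among all genes tested, 27.2% were higher in LT-HSC KO and 23.6% in MPP KO. Of 17 genes of DNA demethylation and methylation 9 were higher in MPP KO and none in LT-HSC KO (median -0.34), against 4 and none in WT (median -0.13). There were 3 with background subtracted or upper quartile factors, 6 without LT-HSC KO replicate 2, and 4 without any other single KO library. The count of 3 lay near the share of all genes, 2850 of 14799 with background subtracted and 2524 of 16150 with upper quartile factors. Tet2, the main TET enzyme of blood stem cells, was at 42.7 and 53.4 CPM in LT-HSC KO and 79.9 and 89.3 CPM in MPP KO (-0.84 ± 0.15, adjusted p = 0.00306), and in WT stood at -0.48 ± 0.15 (adjusted p = 0.0531). Idh1, which makes the cosubstrate of TET enzymes, was at 9.98 and 8.83 CPM and 31.2 and 28.5 CPM (-1.69 ± 0.18, adjusted p = 0.000267). Neither Tet2 nor Idh1 passed the interaction (adjusted p = 0.372 and 0.499). Imprinted growth genes, several of which are known to be transcribed in long-term stem cells, were higher in LT-HSC KO for 8 of 11 tested and in MPP KO for none (median 0.88), against 8 and none of 12 in WT (median 1.78). With background subtracted 5 of 10 tested were. Grb10, an imprinted adaptor that dampens growth factor receptors, was at 119 and 126 CPM and 25 and 23 CPM (2.32 ± 0.13, adjusted p = 1.4e-05).

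Markers of cells outside the blood stem cell gate were unevenly present. Of 23 stromal and bone genes 15 were tested in KO, and 9 were higher in LT-HSC KO and 4 in MPP KO (median 2.18). Shares over all genes tested were 27.2% and 23.6%. In WT 8 were tested, with 2 higher in LT-HSC and 3 in MPP (median -0.27). Col1a1, Prg4 and Lepr had too few counts for the WT test and passed the KO count filter through LT-HSC KO. The KO count and median are therefore partly set by that filter. The summed level of the list was 706 to 860 CPM in LT-HSC KO, 309 to 324 CPM in MPP KO, 136 to 149 CPM in LT-HSC WT and 290 to 302 CPM in MPP WT. Col1a1, the collagen I chain of bone and fibroblasts, had 1683 and 1136 counts in LT-HSC KO and 1 and 2 in MPP KO, a ratio of 2030 times (95% interval 695 to 9860), and 4 and 7 in LT-HSC WT. Col1a2, its partner chain, was at 251 and 170 CPM and 5.43 and 4.48 CPM in KO (5.38 ± 0.24, adjusted p = 6.2e-06) and at 22 and 18.7 CPM in LT-HSC WT. Both LT-HSC KO libraries were thus the high ones, with replicate 1 above replicate 2. Lepr, the leptin receptor of niche cells, had 67 and 66 counts in LT-HSC KO, 4 and 2 in MPP KO and 0 and 4 in LT-HSC WT. Prg4 (lubricin) was at 35.2 and 38.4 CPM and 0.424 and 1.1 CPM, and Sparc (osteonectin) at 42.3 and 32.4 CPM and 2.63 and 1.1 CPM (5.54 ± 0.33 and 4.29 ± 0.35, adjusted p = 1.92e-05 and 7.44e-05). Alpl, the alkaline phosphatase of bone, ran the other way (-2.38 ± 0.26, adjusted p = 0.000321). The part of stromal cells in the other LT-HSC KO values was not tested.

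For the next 3 lists, the shares over all genes tested were 27.2% higher in LT-HSC KO and 23.6% in MPP KO. Endothelial genes that stem cells share were higher in LT-HSC KO for 10 of 14 tested and in MPP KO for 2 (median 1.53), against 7 and 3 of 11 in WT (median 2.23). With any single KO library left out 7 or 8 were higher in LT-HSC KO, and with background subtracted 6 of 10. Mmrn1, multimerin 1 of platelets and endothelium, was at 147 and 187 CPM in LT-HSC KO and 12.6 and 13.6 CPM in MPP KO (3.65 ± 0.17, adjusted p = 6.85e-06), and Pecam1 (CD31) at 54.1 and 58.2 CPM and 163 and 157 CPM (-1.54 ± 0.12, adjusted p = 6.32e-05). T and NK genes were higher in MPP KO for 10 of 14 and in LT-HSC KO for 2, and for 10 and none with background subtracted. Nkg7, a granule protein of cytotoxic cells, was at 6.9 and 7.3 CPM and 94.8 and 93.7 CPM in KO (-3.76 ± 0.15, adjusted p = 4.71e-06) against -0.89 ± 0.12 in WT. Genes of mature neutrophils and monocytes were higher in MPP KO for 6 of 13 and in LT-HSC KO for 2 (median -0.29), against 9 and none of 12 in WT (median -4.29). Ccr2, the monocyte chemokine receptor, had 11 and 9 counts in LT-HSC KO and 547 and 631 in MPP KO (-4.76 ± 0.22, adjusted p = 7.78e-06), and 1 and 0 and 1909 and 2206 in WT. S100a8, a calcium-binding protein of neutrophils, had 32 and 28 and 84 and 75 counts in KO and did not pass (-0.29 ± 0.27, adjusted p = 0.394), while in WT no LT-HSC library had a count and MPP had 30 and 35. F13a1, coagulation factor XIII of monocytes, stood at -3.04 ± 0.20 in KO and -4.26 ± 0.21 in WT.

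Several genes outside the lists had a WT difference of another size, of the opposite direction or none. They were chosen by the size of their interaction, which is therefore a description. Sdc1 (syndecan 1), a proteoglycan of plasma cells and epithelia, had 1 and 3 counts in LT-HSC KO and 1061 and 896 in MPP KO (-7.77 ± 0.31, adjusted p = 4.79e-06), against -3.49 ± 0.30 in WT. Itgb2, the beta chain of leukocyte integrins, was at 15.8 and 19.8 CPM and 78.4 and 75.2 CPM in KO (-2.14 ± 0.16, adjusted p = 4.92e-05). In WT it was at 86.4 and 78.8 CPM and 56.8 and 55.3 CPM and was called the other way (0.61 ± 0.13, adjusted p = 0.0168). Id2, an inhibitor of E-protein factors, was at 1.82 and 2.3 CPM and 19.8 and 17.8 CPM in KO (-3.21 ± 0.27, adjusted p = 8.83e-05) and at 14.3 and 12.9 CPM and 16.1 and 19.8 CPM in WT. For Itgb2 and Id2 the LT-HSC KO libraries were the low ones among the 8. Among genes called in KO and not in WT that averaged at least 50 normalised counts in each genotype and bore no clone or predicted-gene name, the 8 with the largest positive interaction were all over 200 kb long. Sparc, Epb4.9 and Epb4.2, under that count in WT, were shorter. Ptprd, a receptor phosphatase, had 849 and 763 counts in LT-HSC KO and 151 and 130 in MPP KO, and with background subtracted its interaction went from 3.98 to 2.16 (adjusted p = 0.0507). That of Csmd1 went from 3.34 to 3.03 and also missed the threshold (adjusted p = 0.0899). Those of Pcdh11x, Mcc and Cdh13 went from 2.98, 3.96 and 3.86 to 0.86, -0.11 and -4.11, and none passed (adjusted p = 0.154 for Pcdh11x and 0.315 for Cdh13). The interactions of Cntnap5c, Lhfp and Lrp1b kept their calls. For Lhfp the mean levels of LT-HSC and MPP were 22.4 and 3.73 CPM in KO and 39.5 and 63.7 CPM in WT. For Ptprd they were 150 and 11.9 CPM in KO and 37.1 and 46.5 CPM in WT. MPP KO was thus under MPP WT for both genes.

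The share of genes called higher in LT-HSC rose from each class of gene length to the next in KO. In WT it lay between 16.9% and 18.5% in the 3 classes from 5 to 100 kb and was higher in longer classes. Among genes spanning under 5 kb, 7.86% were higher in LT-HSC KO and 9.44% in LT-HSC WT. Between 100 and 200 kb the shares were 48.6% and 21.2%, and over 500 kb 86.9% and 47.3%. The median log2 fold change of genes over 500 kb was 3.19 in KO (206 genes) and 0.95 in WT (201 genes). Shares higher in MPP were 27.4% under 5 kb and 3.88% over 500 kb in KO, and 21.9% and 4.48% in WT. The counts per kb in silent genes, given above, were higher in LT-HSC KO than in MPP KO. They cannot be set beside WT, as these genes were chosen for low WT counts. The part of such reads in these shares was not tested beyond the subtraction. With genes over 100 kb left out, 3164 genes were higher in LT-HSC KO and 2856 in MPP KO, and 2248 genes were called the same way in both genotypes (56.9% of WT calls). With background subtracted 2495 were (53.3% of WT calls and 50.3% of KO calls).

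**Figure D4:**
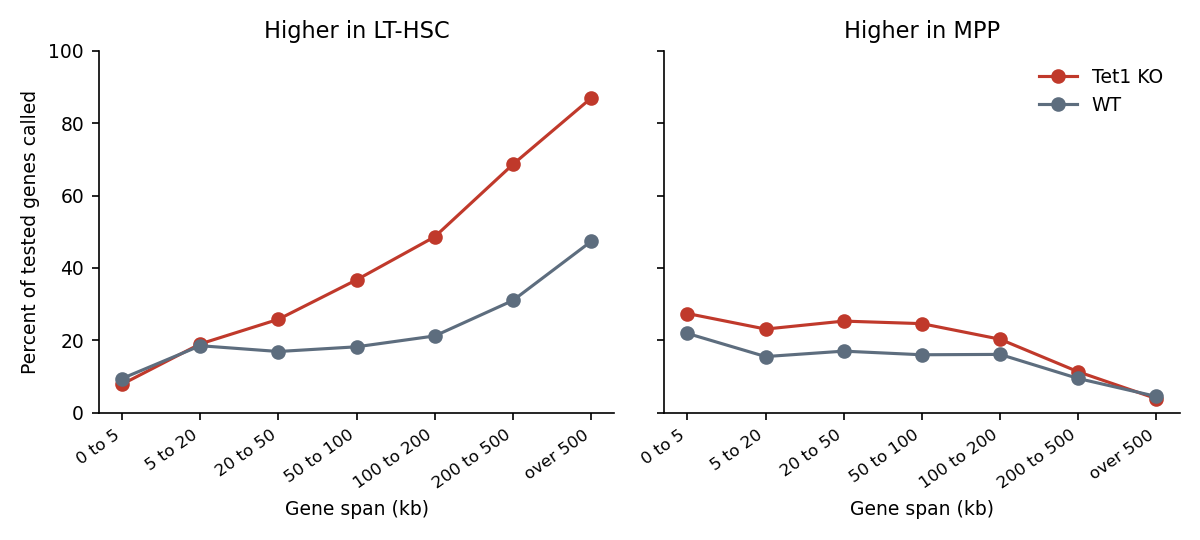
Percent of tested genes called higher in LT-HSC (left) and higher in MPP (right) by span of the gene in kb, Tet1 KO in red and WT in grey; each point is 1 length class and has no replicate error. Over 500 kb the share higher in LT-HSC is 86.9% in KO and 47.3% in WT, and under 5 kb 7.86% and 9.44%.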

How the data were processed

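PolyA RNA of 8 libraries was sequenced as 50 bp paired-end reads. CASAVA and TopHat and the mm9 build are named in the submitters' processing notes, without versions or roles; neither read counter nor strand setting is given in the sources used here. Overlapping and antisense genes and near-identical copies are therefore uncertain. The authors deposited 1 table per population with raw counts per gene and, comparing KO with WT, log2 fold changes and log2 CPM, likelihood ratio scores and p-values; only the counts were used. The tables were joined on gene identifier (17893 genes), with 1792 genes of the LT-HSC table and 1011 of the MPP table left out (at most 0.353% of a library). Genes passing edgeR's default count filter were scaled by TMM and fitted with edgeR 4.0.16 (glmQLFit, glmQLFTest; R 4.3.3, limma 3.58.1), on the 4 KO libraries, on the 4 WT libraries, and on all 8 for the interaction, with Benjamini-Hochberg adjusted p under 0.05 called. The scripts were tested on simulated data. SE is the log2 fold change divided by the root of the F statistic. Ratios and lower bounds use a floor of 3 counts over a group.

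Named were the 5 markers and Tet1, up to 6 called and 3 uncalled members of each of 21 lists with a mean of at least 50 normalised counts, and genes with the largest shared change or interaction under the same limit; only part of these is described, and some items are not reported here. The members and lists were chosen with earlier results of these data known. Alternatives were RLE and upper quartile factors, other count filters, DESeq2 1.42.0, a replicate block, MPP thinned to LT-HSC depth, genes over 100 kb left out, a test against 2-fold, and each library left out. Background subtraction and leaving out 3 satellite gene models were added after seeing the data.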

Additional observations from a re-analysis of the deposited data

Results flagged for a closer look

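For 71 of the named genes the LT-HSC to MPP difference in KO differed from that in WT by the interaction test (edgeR, adjusted p under 0.05), 33 with a higher ratio in KO and 38 with a lower one. Each value below is the KO minus WT difference in log2 fold change. Genes were partly named for a large interaction, and values of genes with few or no counts in a group depend on the prior count.

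Among stem cell and progenitor genes the values were 0.70 for Flt3, -1.55 for Neo1, -1.60 for Vwf, -1.46 for Clec1a, 1.38 for Lmo2, -1.23 for Cd48, -2.10 for Cst7 and -1.29 for Gfi1. Cell cycle genes gave -0.99 for Foxo1, -0.61 for Btg1, 3.02 for Ccne1, -0.47 for Cdk6, -1.73 for Mycn, 1.05 for Cdc6 and -0.49 for Kif23. Immediate early genes were all negative, with -2.90 for Egr2, -1.21 for Ier5, -1.88 for Gadd45b, -1.69 for Rhob, -2.35 for Klf2, -0.89 for Nr4a2, -0.79 for Egr1, -1.28 for Fosb and -1.85 for Klf4. The erythroid genes were all positive, with 1.19 for Epor, 2.55 for Kel, 2.19 for Spnb1, 3.28 for Epb4.2, 2.59 for Ank1 and 3.35 for Epb4.9.

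The megakaryocyte gene Pf4 gave -1.97. The interferon response genes Iigp1, Bst2 and Usp18 gave 0.80, -1.22 and 1.39. Stromal genes gave 9.09 for Col1a1, 11.29 for Prg4, 1.5 for Col1a2 and 3.49 for Sparc. Markers of mature cells gave -1.66 for Pou2af1, -2.78 for Nkg7, 4.70 for Cd2, 5.90 for Ccr2, 1.29 for F13a1 and 7.29 for S100a8. Genes called in WT and named for the size of the interaction gave 6.66 for Grap, 6.61 for Gpr174, 5.66 for Ly86, 5.48 for Bhlha15, 4.64 for Rasgrp1, -5.34 for Aldh1b1, -4.59 for Tnfaip8l2, -4.20 for Sdc1, -3.47 for Trem1, -3.11 for Pyhin1, -2.67 for Itgb2 and -2.65 for Cds1. Genes called in KO and not in WT gave 3.98 for Ptprd, 3.96 for Mcc, 3.86 for Cdh13, 3.34 for Csmd1, 3.31 for Cntnap5c, 3.27 for Lhfp, 2.98 for Pcdh11x, 2.89 for Lrp1b, -2.96 for Gimap4, -2.87 for Pycr1, -2.79 for Id2, -2.46 for Sft2d3, -2.42 for Fam64a, -2.38 for Ncf4 and -2.36 for Cpeb2.

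Of the 71 genes, 48 passed the test whichever single library was left out, and 23 missed it at least once. Leaving out MPP WT replicate 2 ended 22 calls, MPP KO replicate 1 ended 21, and LT-HSC WT replicate 1 ended 6. With background subtracted 14 calls were lost. Neo1, Gfi1, Cdk6, Btg1 and Kif23 then stood at -1.48, -1.31, -0.42, -0.47 and -0.38 (adjusted p = 0.0652, 0.0576, 0.0557, 0.0554 and 0.106), and F13a1 fell to 0.20 (adjusted p = 0.861).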

How the results depend on the processing

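Counts of genes in KO were within 1.5 times under the other scalings, filters and DESeq2, except for 2524 genes higher in MPP with upper quartile factors, 2673 higher in LT-HSC with background subtracted, and 3565 called against a 2-fold limit (2675 higher and 890 lower). With a single library left out the KO calls ranged from 5370 to 6542, with 3171 to 3829 higher and 2199 to 3084 lower. The WT calls ranged from 2464 to 7069 (1288 to 3372 higher, 1176 to 3697 lower), and the interaction calls from 1132 to 4237 (798 to 2521 positive, 334 to 1716 negative). Where 1 sample was left in a group, it is assumed to vary like the others. The interaction passed for 2315 genes without those over 100 kb (1404 positive, 911 negative), for 1494 positive with MPP thinned and for 1209 positive with background subtracted. Calls in the same direction in both genotypes ranged from 1831 to 3512 and opposite calls from 43 to 359 with a library left out. At an adjusted p under 0.01 there were 1439 and 16, and DESeq2 gave 92 opposite calls. Same-numbered libraries deviated together (r = 0.399 in KO and 0.385 in WT), but only 2 pairs exist and no label states a pairing. The replicate block gave 10713 KO calls, 7819 WT calls (4038 higher, 3781 lower), 6897 interaction calls (3632 positive, 3265 negative), 4846 shared and 647 opposite calls. With it Fosb (-0.35, adjusted p = 0.000222), Klf4 (0.33, adjusted p = 0.000548) and Erg (-0.19, adjusted p = 0.0217) passed in KO. The cause of turned signs was not tested. Tet1 in KO was 0.14 with upper quartile factors, 0.01 without genes over 100 kb, 0.02 with background subtracted, and from -0.20 to 0.06 with a single KO library left out, above 0 without LT-HSC KO replicate 1 or without MPP KO replicate 2 (0.05). Erg was 0.01 and Egr1 0.09 with upper quartile factors, and Egr1 was 0.09 with background subtracted and ranged from -0.24 to 0.01 with a single KO library left out, 0.01 being without LT-HSC KO replicate 1. With background subtracted the interactions of Gpr174, Mcc and Cdh13 were 0.00, -0.11 and -4.11. Depth limits the LT-HSC side of genes near 3 counts.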
